A study of Homo sapiens with 9 samples.

Results

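The integrin and laminin genes were taken from the count table by name. Protein-coding genes whose symbol is ITGA or ITGB with a 1- or 2-character suffix, or LAMA, LAMB or LAMC with a digit, gave 39 of 58735 genes. Of these, 27 carry an integrin symbol and 12 encode laminin chains. ITGBL1 matches the pattern but encodes a secreted beta-like protein and no receptor subunit. The study measured RNA by sequencing in U87, a human glioblastoma line, with 3 libraries in each of 3 groups. The PCDH group stably carried the vector alone, the IDH1mt group overexpressed the R132H mutant of isocitrate dehydrogenase 1, and the IDH1mt C269S group overexpressed that mutant with a serine in place of a cysteine. The series asked how attachment of palmitate by the mutant enzyme to itself bears on gene expression. No group overexpressed unmutated IDH1, and the labels do not say how many lines were selected for each construct or whether libraries of 1 group stem from different cultures. The p-values therefore reflect library-to-library spread that may be only technical, and construct and selected line cannot be told apart.

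Integrins are receptors made of an alpha and a beta subunit that span the membrane and tie the matrix outside to actin inside. The alpha subunit largely sets the ligand: one class binds collagens, another laminins, and another binds proteins with the RGD sequence such as fibronectin. Laminins are cross-shaped trimers of an alpha, a beta and a gamma chain that form the sheet of basement membranes. In glioma, integrins and laminins are known for their roles in the invasion of brain tissue along vessels and in adhesion to the matrix the tumour makes.

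Total counts per library ranged from 19108925 to 24803711. IDH1 checked the labels: it lay between 102 and 118 CPM, counts scaled to library size, in PCDH, between 660 and 693 CPM in IDH1mt and between 718 and 773 CPM in IDH1mt C269S. This sets PCDH apart but cannot tell the mutants from each other, whose columns were matched by name. Replicate 3 of PCDH stood apart from the other PCDH libraries on the second principal component (-31.3 against 24.9 and 17.1), so values without it are given where they differ. Among glioma and astroglial markers, CD44 (mean 2721 CPM in PCDH), VIM (3012 CPM), CHI3L1 (249 CPM) and NES (63.4 CPM) were well detected. OLIG2 (8.02 CPM) and GFAP (3.49 CPM) were low, and SOX2 had 5 counts and S100B 33 counts in all 9 libraries together. Of these, edgeR called CD44 higher in both mutants against PCDH (adjusted p = 4.49e-06 in IDH1mt and 0.0124 in IDH1mt C269S). In IDH1mt it called CHI3L1 higher (3.79e-06) and VIM lower (0.0195) than in PCDH. CHI3L1 was lower in IDH1mt C269S than in IDH1mt (0.0336). NES, OLIG2 and GFAP were not called in any comparison. The leukocyte markers CD3E and MS4A1 had no count in any library and PTPRC had 17 in all. CD14 had 124 in all and was the only 1 of the 7 leukocyte markers tested. Its means were 0.493, 0.715 and 0.668 CPM in PCDH, IDH1mt and IDH1mt C269S, and it was not called in any comparison. Single markers of other types moved with the groups: PDGFRA, a fibroblast and glial progenitor receptor, stood at 6.75, 15.8 and 10.5 CPM in PCDH, IDH1mt and IDH1mt C269S, and PPBP, a platelet chemokine, at 8.995, 14.9 and 13.6 CPM. Summed fibroblast markers ranged from 237 to 244 CPM in PCDH, 225 to 233 CPM in IDH1mt and 236 to 262 CPM in IDH1mt C269S, and none of the 4 was at 0. PDGFRB made up most of that sum (198, 183 and 209 CPM). DCN, a matrix proteoglycan of fibroblasts, went the other way from PDGFRA, with 20.3, 13.3 and 16.7 CPM, and LUM, a related proteoglycan, had 15.03, 17.7 and 15.98 CPM. Against PCDH, edgeR called PDGFRA and PPBP higher in both mutants and DCN lower in IDH1mt. For PPBP the adjusted p was 0.000163 in IDH1mt and 0.0129 in IDH1mt C269S. Summed platelet markers ranged from 8.98 to 11.1, 16.2 to 17.5 and 13.0 to 17.4 CPM, with PF4 and GP9 at 2 counts each in all libraries. Their part in the integrin and laminin results was not tested. In such bulk libraries, fewer cells of a type and less RNA per cell cannot be told apart.

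Promoter stretches are shown for the genes on which the results below turn: the 4 collagen-binding alpha subunits, which were all higher in IDH1mt, and 3 laminin chains that differed in every comparison. RefSeq (GRCh38.p14) gave promoters for 27 of the 39 genes, as 34 windows. Each stretch is the 250 bases before the RefSeq start, 5′ to 3′ on the strand of the gene, and for LAMB3 the most upstream of 3 starts. The LAMA4 stretch lies wholly inside the annotated span of the gene (112108760 to 112254939), downstream of its outermost start. The stretches of ITGA2, ITGA1, ITGA10 and LAMB3 overlap the annotated spans of their genes in part. Capitals mark a match to any of 4 short motifs searched on both strands: ACGTG and GCGTG, the cores bound by hypoxia-inducible factors, TGANTCA, bound by AP-1, and GGAATG, bound by TEAD factors.
ITGA2 (chr5:52989102-52989351, plus strand): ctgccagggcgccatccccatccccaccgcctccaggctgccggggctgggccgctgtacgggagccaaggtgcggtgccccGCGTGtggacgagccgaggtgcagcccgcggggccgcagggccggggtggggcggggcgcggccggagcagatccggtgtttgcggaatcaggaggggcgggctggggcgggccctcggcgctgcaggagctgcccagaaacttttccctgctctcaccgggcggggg
ITGA11 (chr15:68432164-68432413, minus strand): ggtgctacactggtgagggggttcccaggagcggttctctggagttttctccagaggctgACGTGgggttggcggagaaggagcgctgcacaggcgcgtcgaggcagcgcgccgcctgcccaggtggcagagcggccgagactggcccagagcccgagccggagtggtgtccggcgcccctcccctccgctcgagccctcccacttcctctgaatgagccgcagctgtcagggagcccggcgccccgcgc
ITGA1 (chr5:52787666-52787915, plus strand): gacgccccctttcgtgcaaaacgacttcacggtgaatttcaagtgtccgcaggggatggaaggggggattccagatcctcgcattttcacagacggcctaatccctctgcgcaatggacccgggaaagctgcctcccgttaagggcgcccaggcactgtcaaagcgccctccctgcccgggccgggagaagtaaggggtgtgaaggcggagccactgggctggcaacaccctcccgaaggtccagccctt
ITGA10 (chr1:145910051-145910300, minus strand): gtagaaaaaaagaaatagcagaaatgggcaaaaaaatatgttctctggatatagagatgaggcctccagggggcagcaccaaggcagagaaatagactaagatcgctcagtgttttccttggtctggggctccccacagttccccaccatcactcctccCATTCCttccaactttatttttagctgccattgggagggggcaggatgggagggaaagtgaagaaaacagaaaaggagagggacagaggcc
LAMB3 (chr1:209652426-209652675, minus strand): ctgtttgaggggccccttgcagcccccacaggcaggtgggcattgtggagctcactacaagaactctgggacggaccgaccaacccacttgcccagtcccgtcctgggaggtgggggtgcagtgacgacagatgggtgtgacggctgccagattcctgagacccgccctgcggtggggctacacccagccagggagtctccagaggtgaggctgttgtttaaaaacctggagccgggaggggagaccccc
LAMA5 (chr20:62367313-62367562, minus strand): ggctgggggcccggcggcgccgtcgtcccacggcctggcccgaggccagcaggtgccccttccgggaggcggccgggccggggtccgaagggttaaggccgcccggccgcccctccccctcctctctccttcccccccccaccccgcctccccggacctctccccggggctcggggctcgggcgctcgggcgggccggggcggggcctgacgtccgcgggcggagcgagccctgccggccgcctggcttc
LAMA4 (chr6:112254568-112254817, minus strand): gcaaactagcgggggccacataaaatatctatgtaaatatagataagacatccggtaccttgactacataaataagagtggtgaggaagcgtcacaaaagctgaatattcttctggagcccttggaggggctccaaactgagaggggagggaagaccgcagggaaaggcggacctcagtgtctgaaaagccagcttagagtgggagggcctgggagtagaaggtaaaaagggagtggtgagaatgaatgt
ITGA2 held 1 match to GCGTG, ITGA11 held 1 to ACGTG, and ITGA10 held 1 to GGAATG, read as CATTCC on the printed strand. Of the LAMB3 windows not printed, that of start 3 held 1 match to TGANTCA and that of start 2 held none. Among all 22199 windows of coding genes, 20.2% held ACGTG, 38.3% GCGTG, 5.4% TGANTCA and 10.5% GGAATG. Among the 34 windows of integrin and laminin genes the shares were 8.8%, 26.5%, 5.9% and 11.8%. A match describes letters in this window and is neither a site nor a cause.

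The genes spanned a wide range of levels. Levels of different genes are compared as the deposited FPKM (fragments scaled by gene length and library size). ITGB1, the beta subunit shared by most alpha subunits, was highest at 332 ± 35.4 FPKM in PCDH, 343 ± 2.69 in IDH1mt and 328 ± 13.2 in IDH1mt C269S (SD, n = 3 each here and below). It was followed by the alpha subunits ITGA3, a laminin receptor, with 211 ± 4.99 FPKM in PCDH, and ITGA5, the fibronectin receptor, with 200 ± 4.14 FPKM. Among laminin chains LAMC1, the common gamma chain, led with 90.6 ± 3.28 FPKM. Next were LAMB2 (58.3 ± 5.02), LAMB1 (35.9 ± 2.71), LAMB3 (31.2 ± 0.350) and LAMA5 (20.7 ± 1.62). All alpha subunits together summed to 555 ± 4.39 FPKM in PCDH, all beta subunits to 397 ± 33.7 and all laminin chains to 245 ± 0.441.

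**Figure D1:**
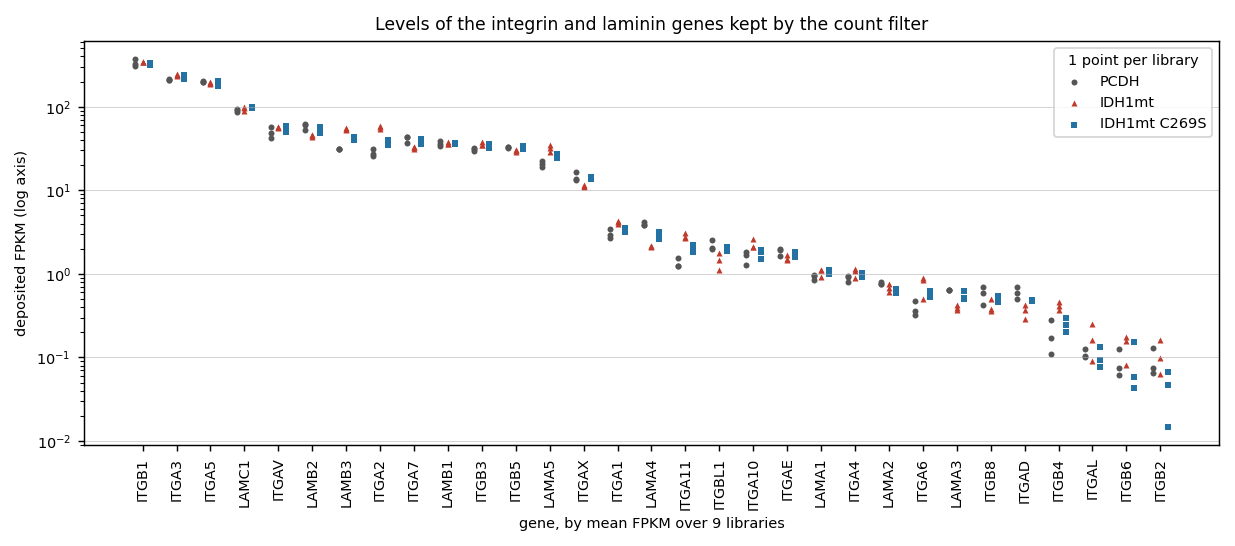
Deposited FPKM (log axis) of 31 of the 32 integrin and laminin genes kept by the count filter, ordered by mean, with 1 point per library and the groups side by side. ITGB1, ITGA3 and ITGA5 have group means of 188 FPKM or more, and no library exceeds 0.253 FPKM for ITGAL, ITGB6 or ITGB2.

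Some chains stood far from the partner they are known to assemble with. LAMB3, known from the epithelial laminin that holds LAMA3, had 31.2 FPKM in PCDH, against 0.643 ± 0.00697 FPKM for LAMA3. ITGAX, an alpha subunit of myeloid cells that pairs with ITGB2, had 14.5 ± 1.96 FPKM, against 0.0892 ± 0.0353 FPKM for ITGB2. The 7 genes removed by edgeR's filter on low counts were ITGB7, ITGA2B, ITGA9, ITGAM, ITGA8, LAMB4 and LAMC3, none with more than 16 counts in a library. The other 32 (22 with an integrin symbol and 10 laminin chains) were tested among 16874 genes.

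The first comparison, IDH1mt against PCDH, asks what the mutant changed. The collagen receptors among the integrins were higher in IDH1mt, the laminin chains LAMB3 and LAMA5 were higher, and LAMA4, LAMA3 and LAMB2 were lower. In edgeR's quasi-likelihood test 10 of the 32 tested genes rose and 6 fell at an adjusted p under 0.05. Over all 16874 genes 14.1% were called in this comparison, 7.18% higher and 6.9% lower. The median log2 fold change was 0.114 over the 32 genes and -0.008 over all genes, and the median size without sign was 0.368 against 0.171. Groups did not overlap for 10 genes higher and 9 lower of the 32, against 29.2% of all genes.

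All 4 collagen-binding alpha subunits rose. ITGA2 (ENSG00000164171, chromosome 5, 52989326 to 53094779 on GRCh38), the collagen receptor of platelets and epithelia, had 208, 214 and 249 CPM in PCDH and 431, 467 and 461 CPM in IDH1mt. The groups were wide apart, and ITGA2 rose 2.02-fold (log2 fold change 1.02, SE 0.07, edgeR adjusted p = 8.96e-13). ITGA11 (ENSG00000137809, chromosome 15, 68296533 to 68432162), a receptor for fibrillar collagen in mesenchymal cells, had 17.1, 13.5 and 13.6 CPM in PCDH. In IDH1mt it had 29.5, 33.8 and 30.6 CPM, so that every IDH1mt library exceeded every PCDH library, and it rose 2.13-fold (log2 fold change 1.09, SE 0.11, adjusted p = 4.88e-09). The summed FPKM of the 4 genes, most of it from ITGA2, went from 34.0 ± 2.87 to 66.2 ± 3.01.

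ITGA1 (ENSG00000213949, chromosome 5, 52787896 to 52959210), a collagen IV receptor that lies 30.1 kb before ITGA2 with no coding gene between them, had 50.3, 54.5 and 64.9 CPM in PCDH and 73.6, 80.3 and 77.3 CPM in IDH1mt. It rose 1.36-fold (edgeR adjusted p = 0.000165), with PCDH replicate 3 nearest to the IDH1mt libraries. Its exons share 475 bases with PELO on the same strand, 2.56% of its exonic length. ITGA10 (ENSG00000143127, chromosome 1, 145891208 to 145910189), a receptor known from cartilage, went from 10.8, 11.5 and 8.07 CPM to 13.3, 16.6 and 13.3 CPM and rose 1.42-fold (adjusted p = 0.0124). Leaving out PCDH replicate 3 ended the call (log2 fold change 0.37, adjusted p = 0.0583), as did leaving out IDH1mt replicate 2 (0.39, adjusted p = 0.118). Limma on log2 of FPKM did not call ITGA10 either (adjusted p = 0.0811 and 0.0853 with 1 and 0.1 added).

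**Figure D2:**
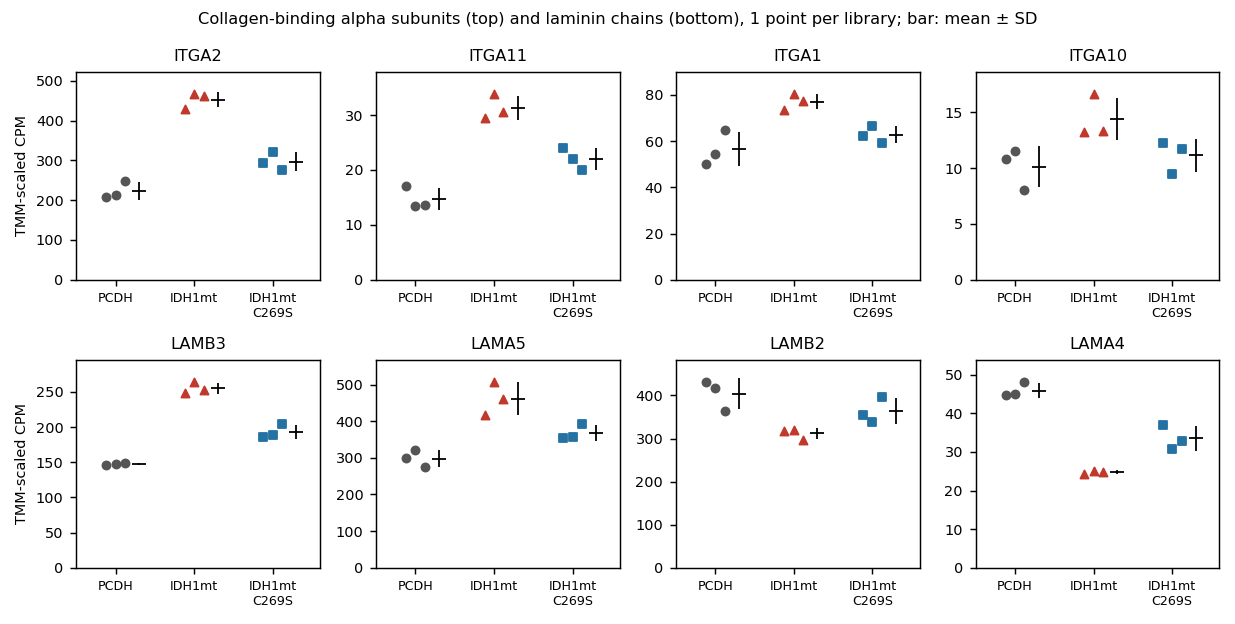
CPM of the 4 collagen-binding alpha subunits (top row) and 4 laminin chains (bottom row) by library, with points for libraries, bars for mean ± SD of 3 libraries, and axes from 0. The IDH1mt libraries lie above all PCDH libraries for the top row, LAMB3 and LAMA5, and below them for LAMB2 and LAMA4.

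The laminin-binding alpha subunits went both ways. ITGA3 (ENSG00000005884) had 2095, 2141 and 2040 CPM in PCDH and 2308, 2354 and 2398 CPM in IDH1mt, a 1.13-fold rise (log2 fold change 0.17, SE 0.05, edgeR adjusted p = 0.0175). This small rise missed the threshold without PCDH replicate 1, IDH1mt replicate 2 or IDH1mt replicate 3 (adjusted p = 0.052, 0.062 and 0.0975) with log2 fold changes of 0.17, 0.17 and 0.16, and under plain library size scaling (0.12, adjusted p = 0.0747). ITGA7 (ENSG00000135424, chromosome 12, 55684568 to 55716043), the laminin receptor of muscle, had 277, 280 and 240 CPM in PCDH and 213, 213 and 200 CPM in IDH1mt. It fell 1.27-fold (log2 fold change -0.35, SE 0.07, adjusted p = 0.000305). ITGA6 and ITGB4 form the receptor of hemidesmosomes, the anchors of epithelia on laminin. Both were rare and both rose: ITGA6 from 2.11, 3.16 and 2.40 CPM to 5.89, 5.60 and 3.32 CPM (1.94-fold, adjusted p = 0.00422) and ITGB4 from 1.92, 0.759 and 1.15 CPM to 2.78, 3.13 and 2.52 CPM (2.22-fold, adjusted p = 0.011). With counts this low (18 to 76 for ITGB4 in these 6 libraries), leaving out replicate 2 of either group ended the ITGB4 call (log2 fold change 0.88 and adjusted p = 0.0847 without that of PCDH, 1.07 and 0.0562 without that of IDH1mt, against 1.15). Limma on FPKM did not call ITGA6 (adjusted p = 0.0563 and 0.0639 with 1 and 0.1 added).

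Of the receptors for fibronectin and other RGD proteins and their beta chains, ITGB3 was the only call. ITGB1 had 1845, 1945 and 2249 CPM in PCDH and 2056, 2080 and 2086 CPM in IDH1mt, a log2 difference of 0.04 (SE 0.06, edgeR adjusted p = 0.687). ITGA5, its fibronectin-binding partner, had a log2 difference of -0.07 (SE 0.05, adjusted p = 0.449). ITGAV, the vitronectin receptor chain, had 351, 405 and 470 CPM in PCDH and 474, 468 and 455 CPM in IDH1mt, a log2 difference of 0.19 (SE 0.08, adjusted p = 0.141, or 0.0291 without the count filter). The spread of ITGAV lay within PCDH, and without PCDH replicate 3 its difference was 0.30 and called (adjusted p = 0.000223). Of the beta partners of ITGAV, ITGB3 rose 1.16-fold from 141, 139 and 131 to 154, 167 and 156 CPM (adjusted p = 0.0166), which missed the threshold without IDH1mt replicate 2 (log2 fold change 0.18 against 0.21, adjusted p = 0.118) and under plain library size scaling (0.17, adjusted p = 0.0674). Exons of ITGB3 share 51.6% of their length with a same-strand gene that had 4 counts in all libraries. ITGB5 and ITGB8, which activate latent TGF-beta with ITGAV, had log2 differences of -0.14 and -0.48 that were not called (adjusted p = 0.0899 and 0.0576). They were called with library size alone (adjusted p = 0.0162 and 0.0337), ITGB8 also without the count filter (0.0393), ITGB5 also without PCDH replicate 3 (adjusted p = 0.0358), and ITGB8 when PCDH replicate 1 or IDH1mt replicate 3 was left out (adjusted p = 0.0134 and 0.0315). ITGB6, the epithelial partner, had at most 20 counts per library and was not called (adjusted p = 0.541). ITGA4, which binds VCAM1 and fibronectin, was not called either (log2 difference 0.22, SE 0.15, adjusted p = 0.378).

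Of the integrins named for leukocytes, ITGAX fell. ITGAX (ENSG00000140678, chromosome 16, 31355134 to 31382997) had 120, 97.0 and 93.8 CPM in PCDH and 79.7, 82.9 and 79.0 CPM in IDH1mt, 1.29-fold lower (log2 fold change -0.36, SE 0.07, edgeR adjusted p = 0.000802). ITGAD, 10.3 kb after ITGAX on the same strand, had 2.65 ± 0.432 and 1.61 ± 0.305 CPM (log2 difference -0.71, SE 0.27, adjusted p = 0.085). ITGAE, ITGAL and ITGB2 had adjusted p-values of 0.19, 0.418 and 0.793. Summed leukocyte markers ranged from 0.541 to 0.759 CPM in PCDH, 1.02 to 1.11 CPM in IDH1mt and 0.408 to 1.42 CPM in IDH1mt C269S, with 3 of 7 at 0 in every library. ITGBL1, the secreted relative, had 12.4, 15.8 and 12.7 CPM in PCDH and 6.86, 10.99 and 9.004 CPM in IDH1mt. It fell 1.52-fold (adjusted p = 0.00369), a call lost without IDH1mt replicate 1 (log2 fold change -0.44, adjusted p = 0.0557). Limma on FPKM did not call ITGBL1 (adjusted p = 0.0505 and 0.0518 with 1 and 0.1 added). In addition, 70.5% of the exonic length of ITGBL1 overlaps FGF14 on the opposite strand, and no source used here gives the strand setting of the counting.

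Among laminin beta chains, LAMB3 rose and LAMB2 fell. LAMB3 (ENSG00000196878, chromosome 1, 209614870 to 209652466) had 147, 147 and 149 CPM in PCDH and 248, 264 and 253 CPM in IDH1mt. The PCDH libraries were nearly identical, and the rise was 1.73-fold (log2 fold change 0.79, SE 0.06, edgeR adjusted p = 4.96e-12). LAMB2 (ENSG00000172037, chromosome 3, 49121114 to 49133118), a beta chain of vascular and neuromuscular basement membranes, had 431, 418 and 364 CPM in PCDH and 317, 321 and 297 CPM in IDH1mt. It fell 1.30-fold (log2 fold change -0.37, SE 0.06, adjusted p = 7.55e-05). LAMB1, the most common beta chain in development, had a log2 difference of 0.02 (SE 0.06, adjusted p = 0.87). The FPKM ratio of LAMB3 to LAMB2, chosen after the values were seen, was 0.538 ± 0.0547 in PCDH, 1.20 ± 0.0499 in IDH1mt and 0.780 ± 0.0323 in IDH1mt C269S.

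Among laminin alpha chains, LAMA5 rose while LAMA4 and LAMA3 fell. LAMA5 (ENSG00000130702, chromosome 20, 62307955 to 62367312), the broadly expressed alpha chain of mature basement membranes, had 300, 321 and 274 CPM in PCDH and 417, 507 and 462 CPM in IDH1mt, a 1.55-fold rise (log2 fold change 0.63, SE 0.07, edgeR adjusted p = 4.76e-08). Its exons share 1.71% of their length with ADRM1 on the opposite strand. LAMA4 (ENSG00000112769, chromosome 6, 112108760 to 112254939), an alpha chain of vessels and mesenchyme that lacks the short arm, had 44.6, 44.9 and 48.1 CPM in PCDH. All IDH1mt libraries were lower, with 24.2, 25.1 and 24.9 CPM, and the fall was 1.85-fold (log2 fold change -0.89, SE 0.09, adjusted p = 3.82e-09). LAMA3 (ENSG00000053747), the epithelial alpha chain, fell 1.65-fold from 9.44, 9.57 and 9.58 CPM to 5.39, 5.76 and 6.22 CPM (adjusted p = 0.000698), and only limma on FPKM with 0.1 added did not call it (adjusted p = 0.0551). The FPKM ratio of LAMA5 to LAMA4, also chosen after the values were seen, was 5.28 ± 0.602 in PCDH, 15.1 ± 1.21 in IDH1mt and 8.97 ± 1.07 in IDH1mt C269S. LAMA1 and LAMA2, alpha chains of the embryo and of muscle, were not called (log2 differences 0.18 and -0.17, adjusted p = 0.324 and 0.497). Nor was the gamma chain LAMC1 (log2 difference 0.06, SE 0.05, adjusted p = 0.499).

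The count of 10 higher genes was 6 without IDH1mt replicate 2, where calls over all genes went from 1211 higher and 1164 lower to 872 and 745. Leaving out a library also lowers the number of replicates, and calls over all genes fell in this comparison without any 1 PCDH or IDH1mt library except PCDH replicate 3, without which they rose to 1574 and 1474. With library size alone in place of TMM scaling, 8 were higher and 8 lower (50% higher against 62.5%), while the higher share of calls over all genes went from 51.0% to 35.2%. Direction did not flip for any called gene under any alternative run.

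**Figure D3:**
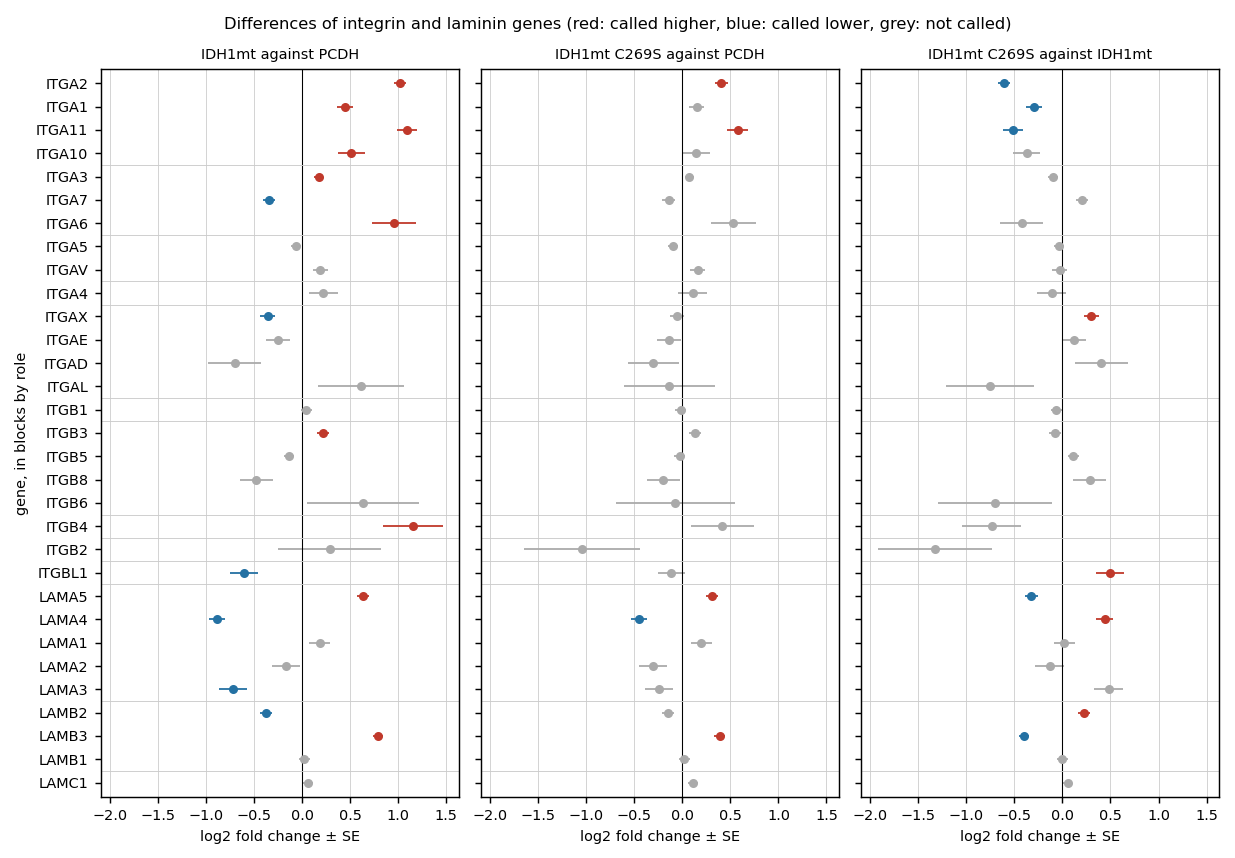
Log2 fold changes with SE of 31 of the 32 tested genes in blocks by role (collagen-, laminin- and RGD-binding alpha, other alpha, beta, laminin alpha, beta and gamma) for the 3 comparisons, with called genes in colour. In the left panel the block of 4 collagen-binding subunits lies to the right of 0, and ITGB1, ITGA5, LAMB1 and LAMC1 lie near 0.

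The second comparison, IDH1mt C269S against PCDH, asks what remains once the cysteine is replaced. This comparison shares the PCDH libraries with the preceding one, so their values are set side by side only. LAMB3, ITGA2, ITGA11 and LAMA5 rose and LAMA4 fell, which made 4 higher and 1 lower of the 32 tested genes. Over all genes 1.42% were called, 0.883% higher and 0.533% lower. The median log2 fold change was -0.025 over the 32 genes and -0.008 over all genes. Groups did not overlap for 7 genes higher and 4 lower, against 15.2% of all genes.

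LAMB3 had 186, 189 and 204 CPM in IDH1mt C269S, all above the PCDH libraries, and rose 1.31-fold (log2 fold change 0.39, SE 0.06, edgeR adjusted p = 7.11e-05). ITGA2 had 293, 321 and 275 CPM and rose 1.32-fold (log2 fold change 0.41, SE 0.07, adjusted p = 0.000333). ITGA11 had 23.9, 21.98 and 19.9 CPM and rose 1.49-fold (log2 fold change 0.58, SE 0.11, adjusted p = 0.00241). For these genes the IDH1mt C269S libraries lay between those of PCDH and IDH1mt without overlap.

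LAMA5 had 355, 358 and 394 CPM and rose 1.24-fold (log2 fold change 0.31, SE 0.07, edgeR adjusted p = 0.0117), a call lost without IDH1mt C269S replicate 3 (0.26, adjusted p = 0.0621). LAMA4 had 37.1, 30.7 and 32.8 CPM and was 1.37-fold lower (log2 fold change -0.45, SE 0.08, adjusted p = 0.00216). Limma on FPKM called LAMB3 but not ITGA2, ITGA11, LAMA5 or LAMA4 (adjusted p from 0.0602 to 0.178). ITGA6 had 3.52, 3.50 and 4.09 CPM, all above PCDH, but was not called (log2 difference 0.53, SE 0.24, adjusted p = 0.35).

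Of the other collagen-binding subunits, ITGA1 had 62.4, 66.6 and 59.2 CPM and ITGA10 12.3, 9.47 and 11.8 CPM, overlapping PCDH, with log2 differences of 0.15 (SE 0.08, edgeR adjusted p = 0.487) and 0.14 (SE 0.14, adjusted p = 0.767). LAMB2 had 356, 339 and 396 CPM and ITGA7 229, 227 and 266 CPM, with log2 differences of -0.15 (adjusted p = 0.297) and -0.14 (adjusted p = 0.36). Without PCDH replicate 3 the counts were 6 higher and 3 lower, while calls over all genes rose from 149 higher and 90 lower of 16874 to 548 and 355 of 17171. The added genes were ITGAV (log2 fold change 0.27, adjusted p = 0.00345), ITGA1 (0.26, adjusted p = 0.0294), LAMB2 (-0.22, adjusted p = 0.0115) and ITGA7 (-0.21, adjusted p = 0.0214). ITGB1 and ITGA5 had log2 differences of -0.02 and -0.10 (SE 0.06 and 0.05), and LAMC1 of 0.11 (SE 0.05, adjusted p = 0.353).

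The comparison of the mutants with each other asks what the serine changed. The collagen-binding subunits ITGA2, ITGA11 and ITGA1 and the laminin chains LAMB3 and LAMA5 were lower with the serine, and LAMA4, LAMB2, ITGAX and ITGBL1 were higher. In edgeR's test 4 of the 32 genes were higher and 5 lower, against 4.9% called over all genes (2.29% higher and 2.61% lower). The median log2 fold change was -0.048 over the 32 genes and 0 over all genes. Groups did not overlap for 8 genes higher and 8 lower, against 23.6% of all genes. Since this comparison shares the IDH1mt libraries with the first, opposite signs in the 2 are not independent.

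With the serine ITGA2 was 1.53-fold lower (log2 fold change -0.61, SE 0.06, edgeR adjusted p = 9.47e-08), and LAMB3 was 1.32-fold lower (-0.40, SE 0.06, adjusted p = 9.55e-06). Both calls held in every alternative run. ITGA11 was 1.43-fold lower (-0.51, SE 0.10, adjusted p = 0.00175) and LAMA5 1.25-fold lower (-0.32, SE 0.07, adjusted p = 0.00232). LAMA4 was 1.35-fold higher (0.44, SE 0.09, adjusted p = 0.00148). These calls held without any single library, and limma on FPKM did not call ITGA11 or LAMA5 (adjusted p from 0.0552 to 0.0768), nor LAMA4 with 1 added (adjusted p = 0.0505).

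The remaining calls were nearer the threshold, and each missed it without any 1 of several libraries. ITGA1 was 1.23-fold lower (log2 fold change -0.30, edgeR adjusted p = 0.0242) and was not called without IDH1mt replicate 2 or 3 or IDH1mt C269S replicate 1 or 3 (adjusted p = 0.132, 0.0985, 0.103 and 0.106), with log2 fold changes of -0.27, -0.30, -0.29 and -0.26. ITGAX was 1.23-fold higher (99.2 ± 2.40 against 80.5 ± 2.06 CPM, log2 fold change 0.30, adjusted p = 0.0124) and was not called without IDH1mt replicate 1 or 3 or IDH1mt C269S replicate 1 (adjusted p = 0.0722, 0.0797 and 0.0535), with log2 fold changes of 0.29, 0.29 and 0.30. LAMB2 was 1.17-fold higher (log2 fold change 0.22, adjusted p = 0.0358) and was not called without any 1 IDH1mt library or without IDH1mt C269S replicate 1 or 3 (log2 fold changes from 0.15 to 0.24, adjusted p from 0.0676 to 0.225). ITGBL1 was 1.41-fold higher (log2 fold change 0.49, adjusted p = 0.0454) and was not called without IDH1mt replicate 1 or 3 or any 1 IDH1mt C269S library (log2 fold changes from 0.33 to 0.54, adjusted p from 0.0818 to 0.327) and in DESeq2 (adjusted p = 0.063). The count of 4 higher genes was 1 without IDH1mt replicate 1 or 3 or IDH1mt C269S replicate 1, 2 without IDH1mt C269S replicate 3, and 6 without PCDH replicate 3. Calls over all genes went from 387 higher and 440 lower to 189 and 261, 206 and 266, 207 and 258, 277 and 365, and 609 and 635 in the same order. With library size alone the count of higher genes was 6 against 5 lower (54.5% higher against 44.4%). That setting and leaving out PCDH replicate 3 added ITGA7 and LAMA3, which had log2 differences of 0.20 and 0.48 with adjusted p = 0.0718 and 0.0569. ITGA7 was also called without the count filter and in a fit of the 6 libraries of this comparison alone (edgeR adjusted p = 0.0239 and 0.013). ITGB1, ITGA5 and ITGAV had log2 differences of -0.06, -0.03 and -0.03 (SE from 0.05 to 0.08).

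The genes around these receptors were described from 7 lists that hold no integrin subunit and no laminin chain: ligands, basement membrane partners, other laminin receptors, adaptors, inhibitors, membrane partners and trafficking factors. The counts stand beside 14.1% called over all genes in IDH1mt against PCDH (7.18% higher, 6.9% lower), 1.42% in IDH1mt C269S against PCDH (0.883%, 0.533%) and 4.9% between the mutants (2.29%, 2.61%). Of 28 tested integrin ligands other than laminins, 13 fell and 3 rose in IDH1mt against PCDH, with a median log2 fold change of -0.238. COL1A2, a chain of the type I collagen that ITGA2 and ITGA11 bind, went from 2218 ± 56.4 to 1274 ± 41.5 CPM (log2 fold change -0.80, SE 0.05, edgeR adjusted p = 1.29e-13). On the log2 scale COL1A1, its partner chain, fell by 0.55 and COL6A1, of microfibrillar collagen VI, fell by 0.56. SPP1, the ITGAV ligand osteopontin, fell by 0.71. FN1, fibronectin, was higher (log2 fold change 0.22, adjusted p = 0.00194). Thus the collagen receptors rose in the same libraries in which these collagen transcripts fell.

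Against PCDH, IDH1mt C269S had 6 ligands lower and 1 higher, with a median of -0.059. On the log2 scale COL1A2, COL1A1 and SPP1 fell by 0.47, 0.37 and 0.41, while FN1 rose (log2 fold change 0.45, SE 0.05, edgeR adjusted p = 5.55e-07). The lower count was 3 without IDH1mt C269S replicate 1 or 2, where lower calls over all genes went from 90 to 38 and 40. The higher count was 3 without PCDH replicate 3, where higher calls over all genes rose from 149 to 548. Against IDH1mt, 14 ligands were higher and 2 lower in IDH1mt C269S, with a median of 0.206. CTGF and CYR61, matricellular ligands of several integrins, were higher by 0.79 and 0.61, and TNC, tenascin C, and COL1A2 by 0.38 and 0.33.

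Of 18 basement membrane partners of laminin, 5 rose and 1 fell in IDH1mt against PCDH (median 0.139). They included COL15A1, a collagen that bridges basement membranes to the matrix (log2 fold change 0.39), FBLN2, a fibulin (0.85), and SMOC1, a calcium-binding matrix protein (0.22), while SPARC, a collagen-binding glycoprotein, fell by 0.24. The higher count was 3 without PCDH replicate 1, PCDH replicate 3 or IDH1mt replicate 3. COL15A1 and SMOC1 were the 2 called in IDH1mt C269S against PCDH (0.36 and 0.28), and the SMOC1 call was lost without IDH1mt C269S replicate 1 (adjusted p = 0.0846). Between the mutants AGRN, agrin, and COL4A3, a rare collagen IV chain, were lower in IDH1mt C269S and SPARC was higher, with 2 genes higher without PCDH replicate 3. Each of these 3 calls was lost when any of several single libraries was left out: SPARC (log2 fold change 0.17) without any 1 IDH1mt or IDH1mt C269S library (0.16 to 0.19, adjusted p from 0.0549 to 0.164), AGRN (-0.24) without any 1 IDH1mt library or IDH1mt C269S replicate 1 or 2 (-0.25 to -0.19, adjusted p from 0.0771 to 0.182), and COL4A3 (-2.47) without PCDH replicate 1 or any 1 IDH1mt or IDH1mt C269S library (-3.10 to -2.09, adjusted p from 0.0569 to 0.186).

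Of 17 laminin receptors other than integrins and their glycosylation enzymes, 4 rose and 2 fell in IDH1mt against PCDH (median 0.089). The syndecans SDC4 and SDC1, proteoglycans that act beside integrins, rose (log2 fold changes 0.33 and 0.24), and B4GAT1 and POMGNT1, which build the laminin-binding sugar of dystroglycan, fell by 0.23 and 0.21. SDC1 was lost without PCDH replicate 1 (adjusted p = 0.0525), B4GAT1 without PCDH replicate 2 or IDH1mt replicate 1 or 3 (0.0546, 0.063 and 0.126), and POMGNT1 without PCDH replicate 2 or any 1 IDH1mt library (0.0587 to 0.168). The counts of this list were 2 higher without any 1 IDH1mt library and 0 lower without PCDH replicate 2, IDH1mt replicate 1 or IDH1mt replicate 3. In IDH1mt C269S none of them was called against PCDH by edgeR or DESeq2 (4 at an unadjusted p under 0.05 in edgeR). Against IDH1mt only SDC4 was called, lower by a log2 difference of -0.23, which was lost without IDH1mt replicate 1 or IDH1mt C269S replicate 1 (adjusted p = 0.0912 and 0.116). That is 1 call of 17 (5.88%), about the share over all genes (4.9%).

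Of 39 adaptors and kinases at the integrin tail, 6 rose and 3 fell in IDH1mt against PCDH (median 0.031). PTK2, the focal adhesion kinase FAK, went from 166 ± 10.2 to 229 ± 11.7 CPM (log2 fold change 0.47, SE 0.06, edgeR adjusted p = 7.04e-07). CRKL, an adaptor of FAK signalling, rose (0.30), while PARVA, which joins integrin-linked kinase to actin, fell by 0.55. In IDH1mt C269S only PARVA was called by edgeR against PCDH (-0.29, adjusted p = 0.0261). It missed the threshold without PCDH replicate 1 or IDH1mt C269S replicate 2 or 3 (adjusted p = 0.129, 0.173 and 0.0854), where its fold change on the log2 scale was -0.27, -0.27 and -0.26. The list had 3 genes higher and 2 lower when PCDH replicate 3 was left out, a setting with 548 higher and 355 lower calls over all genes. Against IDH1mt, 5 were lower and 1 higher in IDH1mt C269S. TNS1, a tensin (-0.32), PTK2 (-0.26) and CRKL (-0.23) were among the lower ones. The lower count was 3 without IDH1mt replicate 2 or IDH1mt C269S replicate 1 and 2 without IDH1mt replicate 3, and the higher count was 0 without any 1 IDH1mt library or IDH1mt C269S replicate 1 or 2. PTK2 and CRKL were lost without IDH1mt replicate 3 (adjusted p = 0.0936 and 0.0614) and TNS1 without IDH1mt replicate 2 or IDH1mt C269S replicate 1 (0.0846 and 0.079).

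In the list named for inhibitors of integrin activation, 7 genes were tested. KANK1, a talin-binding protein whose effect on integrin activation was not tested here, was higher in IDH1mt than in PCDH (log2 fold change 0.49, edgeR adjusted p = 0.0138). Limma on FPKM did not call that rise (adjusted p = 0.105 and 0.13 with 1 and 0.1 added). KANK1 was the only 1 of the 7 called, about the share over all genes (14.1%). It was lower in IDH1mt C269S than in IDH1mt (-0.48, adjusted p = 0.0358), which was not called without any 1 IDH1mt library or IDH1mt C269S replicate 1 or 3 (-0.50 to -0.36, adjusted p from 0.0849 to 0.254). Among 11 membrane partners, the tetraspanin CD9 (0.33) and CD47, the receptor that associates with ITGB3 (0.23), rose in IDH1mt, and SLC3A2, the CD98 heavy chain that binds beta tails, fell by 0.38, with 2 lower without PCDH replicate 3. Against IDH1mt, SLC3A2 was higher in IDH1mt C269S (0.31) and CD9 lower (-0.24). CD9 was not called there without IDH1mt replicate 1 or 2 or IDH1mt C269S replicate 1 or 2 (-0.22 to -0.21, adjusted p from 0.13 to 0.164). Among 9 trafficking factors, DAB2, an endocytic adaptor of integrins, fell by 0.30 in IDH1mt and was higher by 0.30 in IDH1mt C269S than in IDH1mt, and NUMB, another such adaptor, rose in IDH1mt (0.19). These are 2 calls of 9 (22.2%) in IDH1mt against PCDH, against 14.1% over all genes. Between the mutants 1 of 9 was called (11.1%), against 4.9%. NUMB was not called when PCDH replicate 2 or IDH1mt replicate 2 or 3 was left out (adjusted p = 0.0882, 0.0564 and 0.0618). No inhibitor, membrane partner or trafficking factor was called in IDH1mt C269S against PCDH by edgeR or DESeq2 (1, 2 and 1 at an unadjusted p under 0.05 in edgeR). Without PCDH replicate 3, 1 inhibitor was lower there, and 1 membrane partner was higher and 1 lower.

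**Figure D4:**
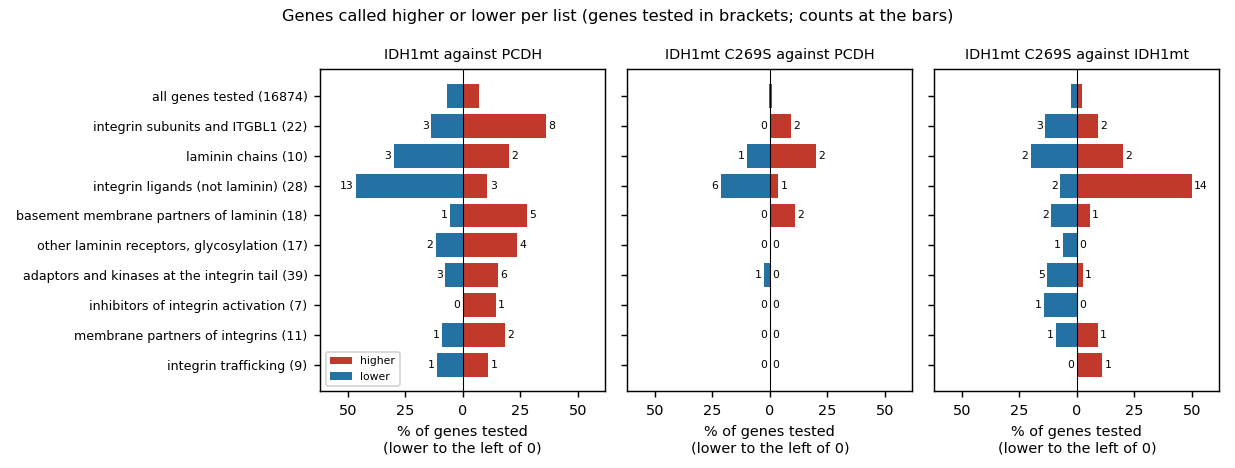
Percent of tested genes called higher (right of 0) or lower (left of 0) per list in the 3 comparisons, with gene counts at the bars and all 16874 genes tested in the top row. Integrin ligands are mostly lower in IDH1mt against PCDH (13 of 28) and mostly higher in IDH1mt C269S against IDH1mt (14 of 28).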

How the data were processed

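RNA of 9 U87 libraries was analysed. The deposited counts are whole reads per gene, and the deposited FPKM values are the authors' scaling of them by gene length and library size. Tools named in the submitters' processing notes are HISAT2 2.0.5 and featureCounts 1.5.0-p3, with GRCh38 as the build; no source used here gives their options. The table's column names (Control, mt, CS) gave the group of each library.

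Genes were kept by edgeR's filterByExpr (16874), scaled by TMM (trimmed mean of log ratios), and tested by quasi-likelihood F in edgeR (version 4.0.16, R 4.3.3), with 9 libraries in 1 fit, a mean per group and Benjamini-Hochberg adjustment over all genes. SE is the log2 fold change divided by the root of F. CPM are TMM-scaled. The procedure was tested on simulated data. Alternatives used DESeq2 version 1.42.0, limma version 3.58.1, other scalings, filters, samples and thresholds, and a replicate block. Replicate pairs differed beyond counting noise.

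The genes tested among those found by the name rule were named, and up to 4 called genes per list and comparison, apart from a few that are not reported here. Members and lists were chosen with earlier results of these data known. Exon overlaps came from GENCODE release 29, in which all 39 genes have the same coordinates. Protein sequences were not used here.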

Additional observations from a re-analysis of the deposited data

How the results depend on the processing

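Of the called genes, 9 of 16 in IDH1mt against PCDH (ITGA1, ITGA2, ITGA7, ITGA11, ITGAX, LAMA4, LAMA5, LAMB2 and LAMB3), 1 of 5 in IDH1mt C269S against PCDH (LAMB3) and 2 of 9 in IDH1mt C269S against IDH1mt (ITGA2 and LAMB3) were called in every alternative run. None reversed. Leaving out single libraries gave 6 to 10 higher and 5 to 7 lower genes for IDH1mt against PCDH, 3 to 6 and 1 to 3 for IDH1mt C269S against PCDH, and 1 to 6 and 4 to 5 between the mutants. An adjusted p under 0.01 left 6 higher in IDH1mt against PCDH and 1 higher between the mutants. Limma on log2 of FPKM plus 1 or plus 0.1 gave, with either, 1 higher and 0 lower in IDH1mt C269S against PCDH (6 and 1 at an unadjusted p under 0.05) and 2 lower between the mutants. The higher genes between the mutants were 0 with 1 added and 1 with 0.1 added (7 at an unadjusted p under 0.05 with either), against 4 in edgeR and 3 in DESeq2. The cause was not tested. Limma on FPKM also did not call KANK1 or POMGNT1 in IDH1mt against PCDH (adjusted p from 0.0812 to 0.13). In IDH1mt C269S against PCDH it did not call PARVA (0.174 and 0.179). Between the mutants it did not call PTK2, TNS1, KANK1, CD9, AGRN or COL4A3 (adjusted p from 0.0634 to 0.312). With library size alone, NUMB was not called in IDH1mt against PCDH (0.0561), nor KANK1 and AGRN between the mutants (0.052 and 0.0577). Replicate numbers are shared across groups. Correlations of same-numbered libraries' deviations from their group means ranged from -0.165 to 0.084, against -0.107 to 0.134 for libraries with different numbers. The labels do not say what the numbers stand for, and these correlations cannot settle it. With the replicate number as a block, the counts were 10 and 6, 4 and 1, and 3 and 5. Of the named genes, 7 were then not called: LAMB2, KANK1, CD9, AGRN and COL4A3 between the mutants (adjusted p = 0.0714, 0.0516, 0.0503, 0.0578 and 0.07), PARVA in IDH1mt C269S against PCDH (0.0679) and POMGNT1 in IDH1mt against PCDH (0.0527). Calls over all genes fell from 1211 and 1164 to 1043 and 944, from 149 and 90 to 111 and 61, and from 387 and 440 to 276 and 329. Low counts, at most 27 per library, limit ITGB2, ITGB6 and the 7 genes that were not tested.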

Other observations

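Of the 7 genes removed by the filter on low counts, ITGA9, an alpha subunit that binds tenascin C and VCAM1, had 7, 10 and 7 counts in the PCDH libraries, 0, 1 and 4 in IDH1mt and 3, 3 and 4 in IDH1mt C269S. The antisense gene ITGA9-AS1 shares 535 bases of its exons, 6.46% of the exonic length of ITGA9, and had 212 counts in all libraries against 39 for ITGA9. ITGAM, the myeloid neighbour 22.2 kb before ITGAX, had 21 counts in all 9 libraries, while ITGAX had 18305.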
